A study of Mus musculus with 9 samples.

Results

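To describe which transcripts were recovered with CELF2 relative to what the lysate contained, 3 CELF2 RIP libraries were compared with 3 input libraries, which are 6 of the 9 libraries of the series. Members were taken by library label, and same-numbered libraries were also compared as pairs. All 9 libraries came from the cytoplasmic fraction of cortices of newborn mice (postnatal day 0) that were heterozygous for a knock-in *Celf2* allele, p.R493H, made by CRISPR/Cas9 editing and backcrossed before use, and wild-type animals were not analysed here. For CELF2 RIP, 10 µg of an antibody against CELF2, raised in rabbit, was added to the precleared fraction for 3 h, and for IgG RIP the same amount of normal rabbit IgG. Input was an aliquot set aside before the beads and antibody were added and received neither. Each condition had 3 biological replicates. The labels give neither the number nor the sex of the animals in a replicate. The deposited table holds estimated counts per RefSeq transcript, which were summed per gene, and 15267 protein-coding genes passed a minimum of 0.5 CPM in at least 3 of the 9 libraries, out of 18559 with a count. Values per library are CPM, the count scaled to a common library size with TMM factors, and a gene was called when its FDR in edgeR's quasi-likelihood test was under 0.01 and its estimated change was at least 2-fold.

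CELF2 is an RNA-binding protein with several RNA recognition motifs that moves between nucleus and cytoplasm, where it acts on splicing or on the stability and translation of mRNAs, often through UGU-rich stretches in 3′ untranslated regions. In RIP-seq, an antibody pulls down the protein and the RNA that comes with it is sequenced. The ratio of a RIP to its input therefore compares the share that a gene takes of the library in each, and a gene's ratio depends on what else was recovered. mRNAs of the newborn cortex come from postmitotic neurons, progenitors, glia, vessels and blood, and the lysate mixes them all.

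Protein-coding genes held between 13523190 and 16840230 estimated counts in the CELF2 RIP libraries and between 55250725 and 78514665 in input, so low genes were counted less precisely in the RIPs. Transcripts that matched no gene took 11.6% to 12.6% of the counts in CELF2 RIP, 9.24% to 9.75% in input and 21.1% to 43.5% in IgG RIP, and were left out. On the 500 most variable genes, the first principal component (34.5% of the variance) set IgG RIP replicate 3 apart from the other libraries, and the second (23.7%) separated CELF2 RIP from input. Replicates differed by more than counting noise.

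In the CELF2 RIPs, most mRNAs of the cytoplasmic ribosomal protein, oxidative phosphorylation and histone families were called lower than in input (76 of 83, 64 of 81 and 58 of 69). Of the genes tested, 2226 were called higher (14.6%) and 2366 lower (15.5%), and in a fit without the IgG RIPs 1438 were higher and 3268 lower. The lists of gene families and markers described below held 2029 of the 15267 tested genes, of which 304 were higher and 433 lower. Most rises and most falls were thus in genes of no list, as were most of the genes tested. The called genes differed in the size of change. The median log2 fold change was 1.29 for the higher genes, with quartiles of 1.13 and 1.51, and -1.77 for the lower genes, with quartiles of -2.47 and -1.35. A rise of at least 4-fold was called for 65 genes, against 952 with a fall of that size, and 11 against 320 passed 8-fold. All 3 CELF2 RIP libraries lay above all 3 input libraries for 6422 genes (42.1%) and below them for 4859 (31.8%).

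The division into higher and lower genes moved with the scaling. With TMM factors the median of all tested genes was 0.19 on the log2 scale, and 48.5% of the called genes were higher. Scaled by total counts alone, the median was -0.27 and 12.9% of the called genes were higher. DESeq2 size factors, upper-quartile factors and TMM over coding and noncoding genes together gave 36.6%, 28.4% and 17.3%. The 2366 falls were called under each of these 5 scalings, and so were 531 of the rises (3.48% of the genes tested). TMM had the highest median of the 5, so the others moved genes down, which keeps falls and removes rises. This contrast follows from taking TMM as the main scaling. The 531 were all the rises called with total counts, which called 3581 falls, 2366 of them also called with TMM. Log2 fold changes of coding genes below are from the TMM fit and are to be read against its median of 0.19. Those of noncoding genes are from a fit of coding and noncoding genes together, whose median was 0.0033. IgG RIP, set against the same input libraries, had 1037 genes called higher (6.79%) and 764 lower (5%), and CELF2 RIP set against IgG RIP had 2050 higher (13.4%) and 2069 lower (13.6%). For most lists with rises, the number called under all 5 scalings is given with the count. Counts in a list are to be set beside the 14.6% called higher and 15.5% called lower of all coding genes. Non-overlap of the groups was common, with CELF2 RIP above all input libraries for 42.1% of coding genes and below them for 31.8%.

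**Figure D1:**
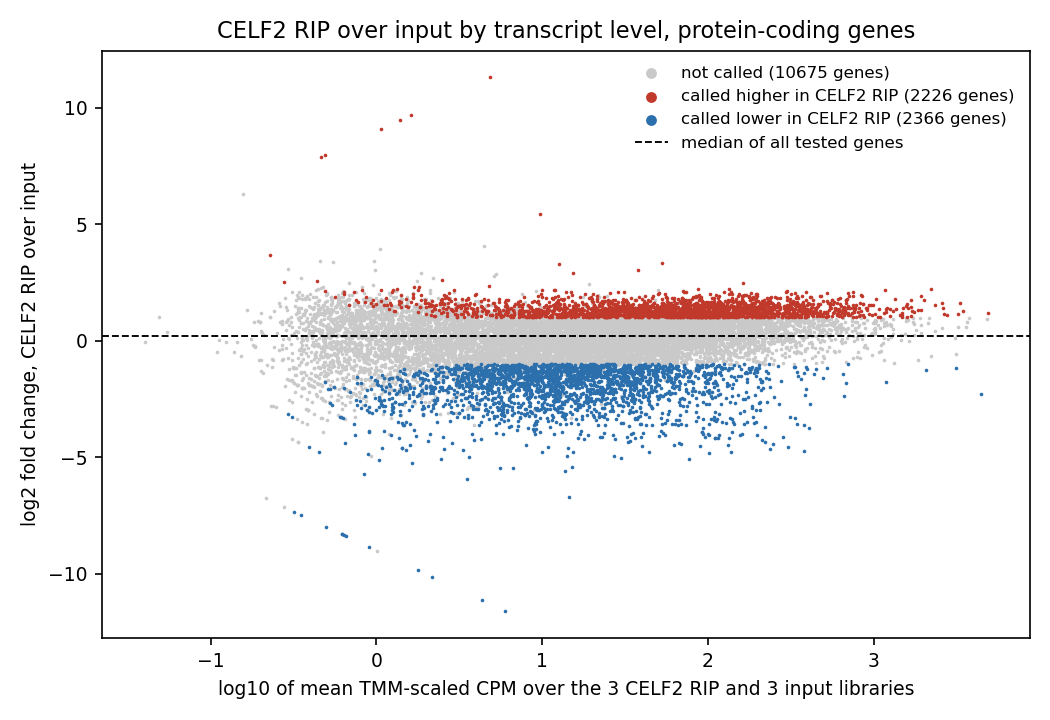
Log2 fold change of CELF2 RIP over input (vertical) against the log10 of the mean CPM over the 3 CELF2 RIP and 3 input libraries (horizontal), with 1 point per protein-coding gene. The 2226 genes called higher are red, the 2366 called lower are blue, and the dashed line is the median of all 15267 genes at 0.19. The falls reach much further from the line than the rises, apart from a few genes near 0 counts in 1 of the conditions.

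*Celf2* itself (chromosome 2, 6539694 to 7396341, build GRCm38.p6 here and below) was present in every library, at 470, 797 and 647 CPM in CELF2 RIP replicates 1, 2 and 3 and at 304, 278 and 305 CPM in input. The RIP libraries were all above input, with a log2 fold change of 1.11 (SE 0.18, FDR = 0.000434). Among the 5 scalings, *Celf2* was called only with TMM. Its change was 0.97 with DESeq2 size factors, 0.87 with upper-quartile factors, 0.70 with TMM over coding and noncoding genes and 0.63 with total counts. In the fit of 6 libraries without IgG RIP it was 0.88 and not called. On curated RefSeq rows alone, without predicted transcripts, the change was 1.46 and its FDR was 0.0155, so the call was lost. It was also under 2-fold without CELF2 RIP replicate 2 (0.92) or input replicate 2 (0.95).

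Of the 12 genes named for the largest rises, the most counted was *Agrn* (chromosome 4, 156165290 to 156197533), which encodes agrin, a heparan sulfate proteoglycan that organizes synapses. It had 2889, 4422 and 3647 CPM in CELF2 RIP and 781, 850 and 715 CPM in input (log2 fold change 2.22, SE 0.15, FDR = 3.02e-06). In IgG RIP it stood at 2344, 2403 and 2253 CPM, also above every input library, and CELF2 RIP over IgG RIP was 0.65, which was not called. *Cds2*, a CDP-diacylglycerol synthase of phospholipid synthesis, had 1437, 2744 and 1585 CPM in CELF2 RIP against 426, 428 and 414 CPM in input (log2 fold change 2.19, SE 0.21, FDR = 2.01e-05). Its IgG RIP values, 547, 545 and 558 CPM, were close to input, and CELF2 RIP was called higher than IgG RIP. *Gramd4*, which encodes a membrane protein with a GRAM domain, rose by 2.20 from 33.9, 33.5 and 25.8 CPM in input to 147, 125 and 157 CPM. *Zfp740*, a zinc finger gene, rose by 2.21 from 45.8, 44.4 and 52.8 CPM to 147, 287 and 229 CPM. Neither gene's groups overlapped, and both were called higher than IgG RIP as well.

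The genes with larger ratios among these were counted less. *Ankrd50* (chromosome 3, 38449259 to 38484862), whose product takes part in endosomal recycling, had 30.5, 132 and 126 CPM in CELF2 RIP and 8.52, 10.9 and 9.33 CPM in input (log2 fold change 3.33, SE 0.47, FDR = 0.000172). Replicate 1 was well below the other RIPs but still above all input libraries, and on curated rows the change was 1.52. *Eml4*, a microtubule-binding protein gene, had 68.3, 62.6 and 71.0 CPM against 6.98, 7.56 and 10.3 CPM, a log2 fold change of 3.02 (SE 0.47, FDR = 0.000334). On curated rows its change of 2.51 had an FDR of 0.210. *Klhl3*, a substrate adaptor of a ubiquitin ligase, and *Ankrd61* rose by 2.93 and 2.34.

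A few rises rested on genes with few or no counts in input. *Pbrm1*, a subunit of the PBAF chromatin remodeler, had 15, 1.23 and 13.0 CPM in CELF2 RIP and 0 counts in all input and IgG RIP libraries, which puts it at least 226-fold higher than input when each input library is set to a floor of 3 counts. Counts are sums of the transcript rows that matched a gene, and rows without a gene were left out. A sum of 0 therefore need not mean that the lysate lacked the mRNA, here and for other genes given with 0 counts. *Urb2*, of ribosome biogenesis, had 15.9, 6.16 and 35.0 CPM against 0.397, 0.837 and 0 CPM, and *Rbm12b2*, an RNA-binding protein gene, had 18.5, 45.0 and 5.18 CPM against 1.62, 1.17 and 4.33 CPM. Their log2 fold changes were 5.45 (FDR = 0.00658) and 3.28 (FDR = 0.0024), and both calls were lost when the replicate number was a block. *Urb2* was as high in 2 IgG RIPs (15.9 and 30.1 CPM) as in CELF2 RIP.

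*Rbfox1* (chromosome 16, 5884793 to 7412480), a neuronal splicing regulator, was a rise of another kind. CELF2 RIP held 195, 356 and 273 CPM and input 48.6, 51.1 and 48.9 CPM, a log2 fold change of 2.47 (SE 0.28, FDR = 4.7e-05). IgG RIP held more than either, at 956, 1071 and 512 CPM, and CELF2 RIP was called lower than IgG RIP by 1.62. On curated rows the change over input was 0.91 with an FDR of 0.0769. *Sptbn4*, which encodes a spectrin of axon initial segments, had the same order, with 219, 238 and 358 CPM in CELF2 RIP, 74.9, 61.1 and 70.8 CPM in input and 1352, 904 and 1898 CPM in IgG RIP. The predicted genes *Gm31606* and *Gm43707* also rose over input (1.14 and 1.88) with their highest levels in IgG RIP.

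**Figure D2:**
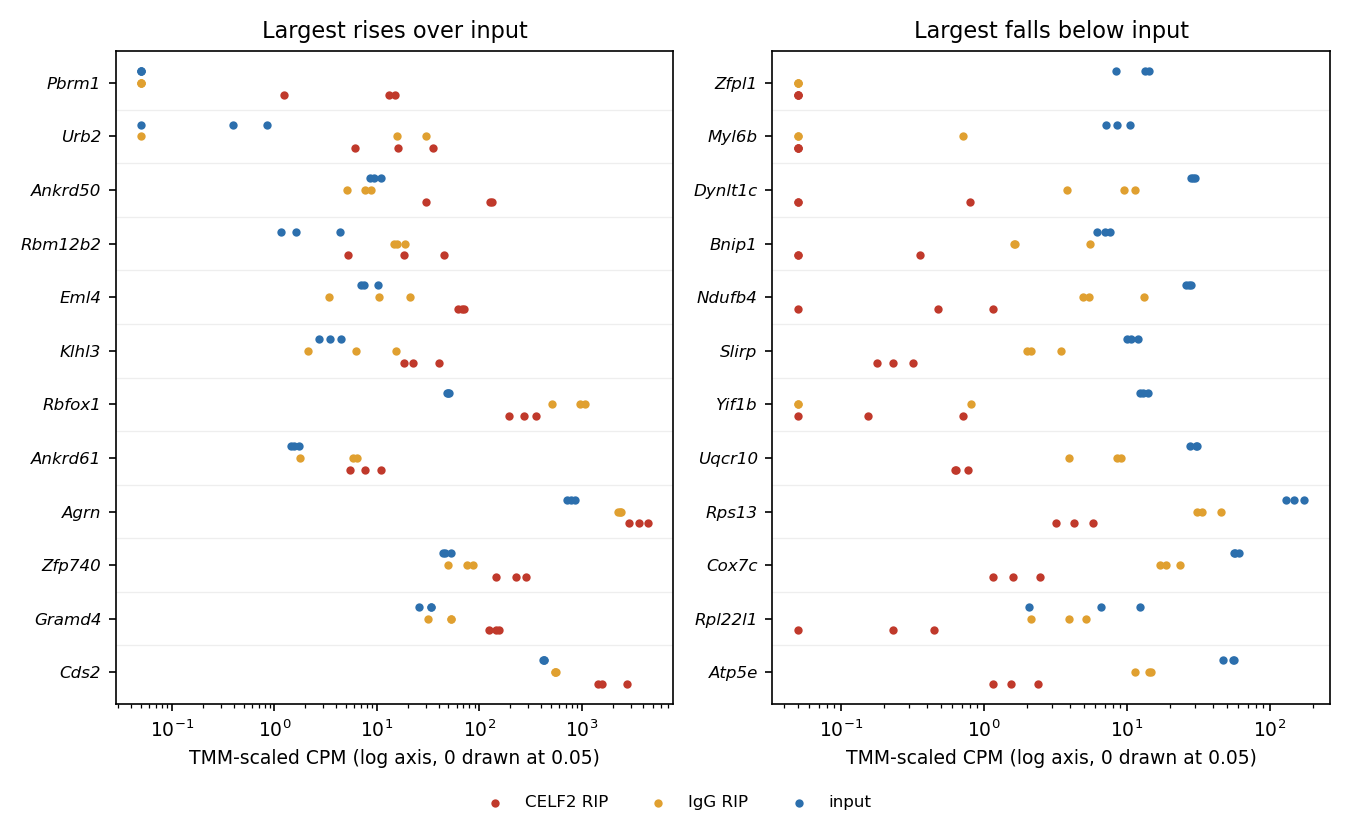
CPM in each library on a log axis for the 12 named genes with the largest rises (left) and the 12 with the largest falls (right). Red points are CELF2 RIP, orange IgG RIP and blue input, with 3 points each, and values of 0 are drawn at 0.05. The red points lie to the right of the blue for the rises and to the left for the falls, while IgG RIP lies beyond both for *Rbfox1* and between them for genes such as *Rps13* and *Cox7c*.

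The largest falls left little or nothing in CELF2 RIP. *Zfpl1*, of Golgi structure, and *Myl6b*, a myosin light chain gene, had 0 counts in every CELF2 RIP library. In input they had 13.3, 8.38 and 14.3 CPM and 10.5, 8.47 and 7.12 CPM, so they were at least 48.7-fold and 35.3-fold lower. *Dynlt1c*, a dynein light chain gene, had 0.800, 0 and 0 CPM against 28.9, 29.7 and 28.0 CPM (log2 fold change -6.71, FDR = 3.81e-05). *Dynlt1c* belongs to a group of near-identical copies, between which reads can be divided differently from library to library. *Bnip1*, a SNARE gene of retrograde transport, fell by 5.92, *Yif1b*, of transport from the endoplasmic reticulum, fell by 5.44 with about as little in IgG RIP, and *Slirp*, which encodes a mitochondrial RNA-binding protein, fell by 5.45. Of the other 6 named falls, 4 were oxidative phosphorylation genes and 2 were ribosomal protein genes, described next.

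Ribosomal proteins form the small and large subunits of the ribosome, and their short, abundant mRNAs had the lowest median among the lists of coding genes. Of 83 tested genes of the cytoplasmic ribosome, 76 were called lower and 1 higher, with a median log2 fold change of -3.50, or -3.70 relative to the median of all genes. The family's summed level was between 1937 and 2441 CPM in CELF2 RIP and between 16217 and 17790 CPM in input. Medians in the 3 same-numbered pairs were -3.23, -3.38 and -3.79. Falls were called in both subunits, with 29 of 33 small-subunit genes and 47 of 50 large-subunit genes called lower and medians of -3.69 and -3.49. *Rps13* (chromosome 7, 116331507 to 116334190) had 5.76, 4.23 and 3.21 CPM in CELF2 RIP and 148, 129 and 174 CPM in input (log2 fold change -5.09, SE 0.25, FDR = 4.14e-07). *Rplp0* (chromosome 5, 115559467 to 115563729), of the ribosomal stalk and the most counted of the family in input, had 30.2, 29.9 and 23.3 CPM against 709, 689 and 804 CPM, a log2 fold change of -4.72 (SE 0.16, FDR = 7.48e-08). *Rpl22l1*, a paralog of a large-subunit gene, had 0, 0.231 and 0.446 CPM against 6.63, 12.3 and 2.05 CPM. The groups of the 3 genes did not overlap.

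*Rpl15* was the exception that was called. It stood at 104, 124 and 90.0 CPM in CELF2 RIP and 47.6, 52.0 and 39.1 CPM in input (log2 fold change 1.20, SE 0.22, FDR = 0.000844). The change was 0.73 under the lowest of the scalings. *Rpl22*, with 211, 219 and 211 CPM against 115, 118 and 139 CPM, had a change of 0.79 that was under 2-fold. The family also stood lower in IgG RIP than in input, where 54 of the 83 genes were called lower with a median of -1.41, and CELF2 RIP was called lower than IgG RIP for 73 of them, with a median of -2.16. These 3 contrasts share libraries and are not independent. Many processed pseudogenes resemble these genes, and reads could be divided between the copies.

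Nuclear-encoded subunits of oxidative phosphorylation, the respiratory chain and ATP synthase of mitochondria, followed the same course. Of 81 genes, 64 were called lower and 0 higher, with a median of -2.65. Complex IV had the lowest median among the complexes (12 of 14 lower, -3.17), followed by ATP synthase (14 of 17, -2.93), complex I (27 of 36, -2.62) and complex III (8 of 9, -1.94), while 2 of the 4 complex II genes were lower, with a median of -0.76. The differences between complexes were not tested. *Ndufb4*, of complex I, had 0.480, 1.16 and 0 CPM in CELF2 RIP and 27.4, 25.9 and 28.0 CPM in input (log2 fold change -5.57, FDR = 4.58e-05). *Uqcr10* of complex III (0.640, 0.770 and 0.625 CPM against 31.0, 30.2 and 27.7 CPM), *Cox7c* of complex IV and *Atp5e* of ATP synthase had log2 fold changes of -5.44, -5.04 and -4.94. *Atp5b*, the catalytic subunit and the most counted, fell by 1.15 only, from 729, 699 and 725 CPM to 451, 253 and 266 CPM. The highest value belonged to *Uqcrfs1*, the Rieske iron-sulfur protein, at 0.70, which was not called.

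Mitochondrial ribosomal protein genes, whose products translate the mitochondrial genome, were lower in 45 of 77 cases and higher in 0, with a median of -1.58. *Mrpl42* had the largest fall among those above 5 CPM, from 9.76, 8.89 and 11 CPM in input to 0.160, 1.0 and 0.714 CPM in CELF2 RIP, a log2 fold change of -3.97 (FDR = 3.41e-05). Slc25 carriers, which move metabolites over the inner mitochondrial membrane, were called about as often as all coding genes. Of 41 tested, 7 were higher (17.1%, 3 genes under all 5 scalings) and 8 lower (19.5%), with a median of 0.28 that was -0.19 when scaled by total counts. *Slc25a51*, the mitochondrial NAD+ carrier, had 221, 361 and 255 CPM against 69.6, 71.8 and 78.8 CPM in input (log2 fold change 1.93, FDR = 3.24e-05), and the ADP/ATP carrier *Slc25a5* had 17.6, 11.9 and 10.4 CPM against 131, 117 and 117 CPM (-3.19, FDR = 1.7e-06). The groups did not overlap for either carrier, in opposite directions.

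**Figure D3:**
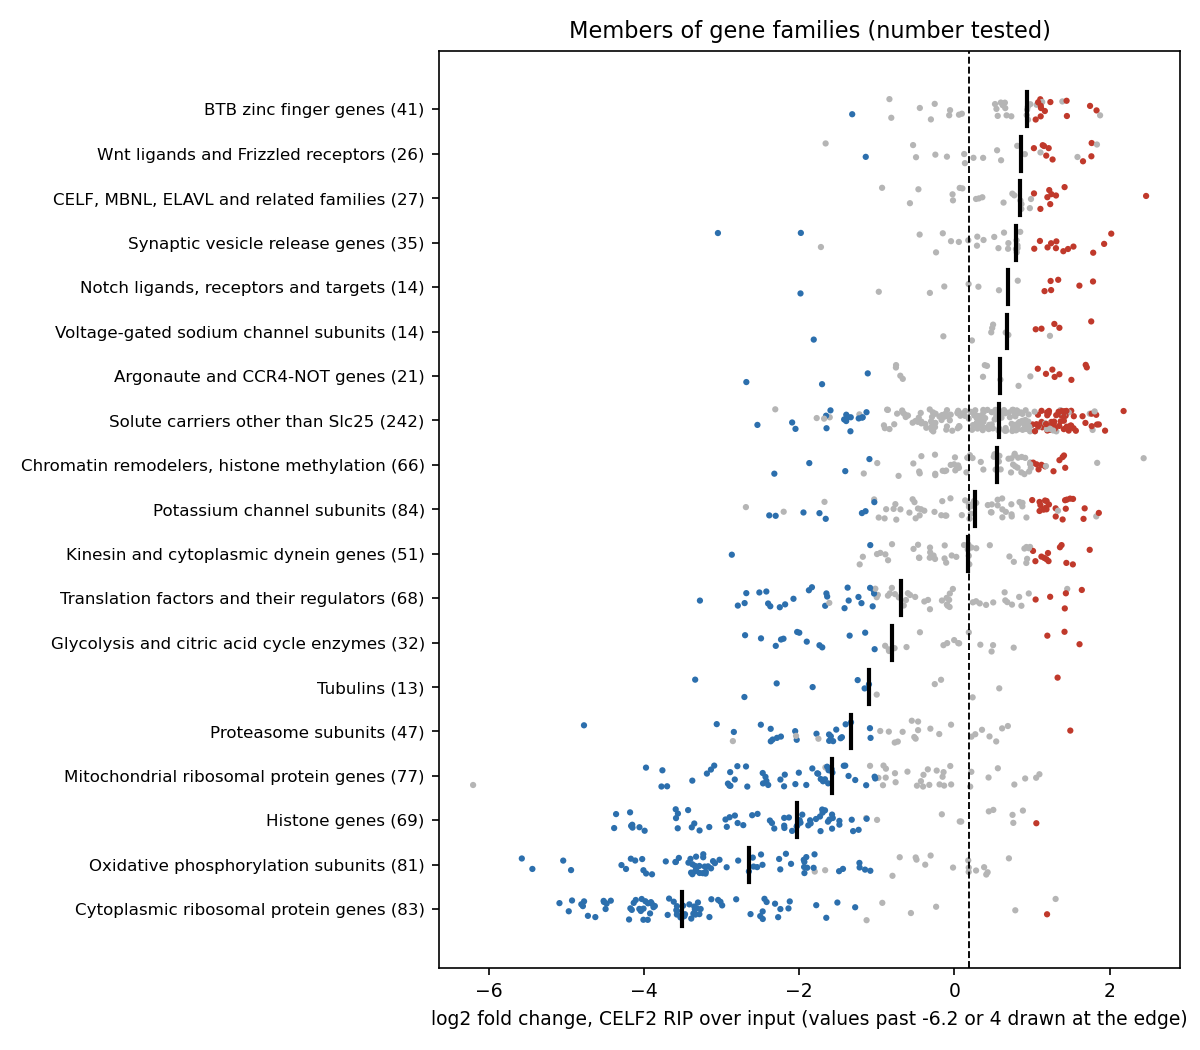
Log2 fold change of CELF2 RIP over input for each tested member of 19 gene families, with the number tested in parentheses, red for genes called higher, blue for genes called lower and gray for genes not called. The short black bars are family medians and the dashed line is the median of all genes, 0.19. Ribosomal protein, oxidative phosphorylation and histone genes lie mostly to the left of the line, and BTB zinc finger, Wnt and Frizzled, and CELF-related genes mostly to the right.

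Histones package DNA, and the mRNAs of the replication-dependent genes end in a stem-loop in place of a poly(A) tail. Of 69 histone genes tested, 58 were called lower and 1 higher, with a median of -2.02. Genes of H4 and H3 had the lowest medians (-3.38 over 13 genes and -3.56 over 11 genes), then H2A (-2.11 over 16), H2B (-1.71 over 16) and H1 (-1.57 over 7). *H4c3* had 6.48, 6.01 and 5.80 CPM in CELF2 RIP against 124, 125 and 133 CPM in input (log2 fold change -4.38, SE 0.24, FDR = 6.49e-07). Among the 6 replacement histone genes, whose mRNAs are polyadenylated, 3 were called lower, with a median of -1.15. The fall of *H1f4*, by 1.13, was lost with the replicate block. Genes for the same histone are nearly identical in coding sequence, so values of single copies are uncertain, including the rise of 1.06 for *H4c18*.

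Proteasome subunits, which form the machine that degrades ubiquitinated proteins, were lower in 23 of 47 cases and higher in 1, with a median of -1.33. The core particle had 11 of 18 genes lower (median -1.67) and the regulatory particle 8 of 20 (median -0.79). *Psme2*, an activator subunit, fell by 4.77 from 19.3, 20.2 and 18.6 CPM to 1.20, 0.539 and 0.357 CPM. *Psmd2*, the most counted, had 493, 369 and 433 CPM in CELF2 RIP and 311, 313 and 321 CPM in input and was not called (0.45). The called rise was in *Psmb11*, a thymus-specific subunit with no more than 7.31 CPM in any CELF2 RIP library.

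Translation factors bring mRNAs, ribosomes and transfer RNAs together. Of 68 genes for these factors and their regulators, 25 were called lower and 5 higher, 1 of them under all 5 scalings, with a median of -0.68. Subunits of eIF3, which holds the small ribosomal subunit during initiation, were lower in 10 of 14 cases (median -1.92), whereas eIF4 genes, of the cap-binding complex and its partners, were lower in 4 and higher in 2 of 16 (median -0.09). *Eif3f* had 18.9, 17.0 and 12.7 CPM in CELF2 RIP against 158, 140 and 174 CPM in input (-3.28, FDR = 5.1e-07). *Eif4ebp2*, the neuronal inhibitor of cap-dependent initiation, rose by 1.64 from 157, 151 and 180 CPM to 397, 611 and 516 CPM and was called under all 5 scalings. *Eef1a1*, the elongation factor with the most counts, had 3136, 2113 and 2351 CPM against 3814, 3589 and 3877 CPM and was not called (-0.57).

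Tubulins, the building blocks of microtubules, held the gene with the most counts among the falls. *Tuba1a*, the main alpha-tubulin of young neurons, had 2066, 1222 and 1266 CPM in CELF2 RIP and 7657, 6924 and 7673 CPM in input (log2 fold change -2.29, SE 0.23, FDR = 2.54e-05). Its neighbor and close paralog *Tuba1b* moved the other way, from 237, 269 and 180 CPM in input to 533, 667 and 526 CPM, a rise of 1.33 (SE 0.19, FDR = 0.000162) that was 0.86 under the lowest scaling. Their coding sequences are nearly identical, and a division of shared reads between them was not tested. Of 13 tubulin genes, 7 were called lower and 1 higher. Enzymes of glycolysis and the citric acid cycle were lower in 13 of 32 cases and higher in 3. *Gapdh* fell by 2.70, from 708, 678 and 775 CPM to 120, 109 and 105 CPM. The 3 rises were *Hk2* and *Pfkp*, which catalyze early regulated steps of glycolysis, and the lactate dehydrogenase gene *Ldha* (1.61, 1.42 and 1.20), of which *Hk2* was called under all 5 scalings.

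RNA-binding proteins of the CELF, MBNL, ELAVL, RBFOX, NOVA, QKI, PTBP, PUM and FMRP families regulate splicing, stability and translation. Of 27 such genes, 9 were called higher and 0 lower, with a median of 0.85. The 1 rise that held under all 5 scalings was that of *Rbfox1*, which was called lower in CELF2 RIP than in IgG RIP. Against IgG RIP, 11 of the 27 genes were called higher and 2 lower. *Rbfox2*, the most counted, had 879, 1479 and 1194 CPM in CELF2 RIP and 425, 423 and 478 CPM in input (1.42, FDR = 6.02e-05), although on curated rows its change of 1.22 was not called. *Celf1* and *Celf5*, relatives of *Celf2*, rose by 1.22 and 1.24, the first of which was not called with the replicate block, and *Celf3* had the lowest value of the list, -0.93, which was not called with TMM but was called lower under the other 4 scalings (-1.38 to -1.07). SR and hnRNP splicing factors were lower in 3 of 31 (9.68%) and higher in 4 (12.9%, close to the share of all coding genes), 2 of the rises under all 5 scalings. Among them were *Hnrnpa0* (235, 258 and 222 CPM in input, 640, 746 and 767 CPM in CELF2 RIP, 1.59) and *Hnrnph3* (-1.96).

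MicroRNA silencing and deadenylation both lower the translation and stability of target mRNAs. Among Argonaute and Tnrc6 genes, which form the silencing complex that microRNAs guide, 5 of 7 were called higher and 0 lower (median 1.18). Among 11 subunits of CCR4-NOT, which shortens poly(A) tails, 2 were higher and 3 lower (median -0.66). *Ago2* (chromosome 15, 73101625 to 73184947) had 251, 469 and 375 CPM in CELF2 RIP and 106, 108 and 122 CPM in input (log2 fold change 1.71, SE 0.19, FDR = 4.63e-05). *Tnrc6b*, *Ago4* and *Dicer1* rose by 1.69, 1.51 and 1.35, and the first 2 of these and *Ago2* were called under all 5 scalings. *Tnrc6c* rose by 1.18 (0.96 without CELF2 RIP replicate 2), but its change was 0.06 on curated rows. The CCR4-NOT subunit *Cnot3* went from 42.7, 38.5 and 52.8 CPM in input to 5.6, 7.47 and 7.85 CPM, a fall of 2.68 (FDR = 2.1e-06), whereas the deadenylases *Cnot6* and *Cnot6l* rose by 1.29 and 1.26.

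Transcription factors with a BTB domain and zinc fingers, many of which repress transcription, had the highest median of the lists of coding genes, 0.94, with 13 of 41 called higher and 1 lower. This list was taken by symbol and also held *Zbtb8os*, which is not such a factor. Under all 5 scalings 2 rises held, *Zbtb34* (153, 293 and 205 CPM against 60.1, 58.5 and 64.2 CPM, 1.83) and *Zbtb8b* (1.75). *Zbtb18*, a transcriptional repressor needed for cortical neurons to differentiate, had 934, 1303 and 1148 CPM against 548, 495 and 535 CPM and rose by 1.10, and *Zbtb12* fell by 1.32 (-0.55 and not called on curated rows). Of 366 Zfp genes, 59 were higher (16.1%, close to the 14.6% of all coding genes) and 16 lower (4.37%). Under all 5 scalings 19 of the rises held, and the median of 0.31 was -0.16 when scaled by total counts. The most counted, *Zfp704*, rose by 1.91 from 384, 352 and 332 CPM to 1021, 1692 and 1291 CPM. Of 22 transcription factors of cortical layers, *Rorb*, *Bcl11b*, *Sox5* and *Tbr1* rose (1.23, 1.18, 1.17 and 1.05, with 0 of them called under all 5 scalings) and *Fezf2* fell by 1.25.

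Chromatin remodelers and histone methylation enzymes were called higher in 10 of 66 cases (15.2%, close to the share of all coding genes), with 0 under all 5 scalings, and lower in 4. Their median was 0.55 over input and -0.10 over IgG RIP, against which 4 were higher and 4 lower. The rises included 5 of 18 methyltransferases and 2 of 17 demethylases, such as *Setd7* (1.43), *Kmt2d* (1.40) and *Kdm4a* (1.41). *Smarcd3*, a BAF complex subunit of postmitotic neurons, fell by 2.32 from 81.2, 80.5 and 94.5 CPM in input to 17.5, 16.9 and 17.0 CPM (-1.73 and not called on curated rows), and the paralog *Smarcd1* rose by 1.35.

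Potassium channels set the resting potential and firing of neurons. Of 84 potassium channel subunits, 21 were called higher (5 under all 5 scalings) and 8 lower, with a median of 0.27 that was -0.19 when scaled by total counts. *Kcng3*, a modulatory subunit, had 27.4, 46.7 and 36.4 CPM in CELF2 RIP and 10.8, 10.3 and 9.28 CPM in input (1.86, FDR = 7.77e-05), although its change of 1.53 on curated rows was not called. The delayed rectifier *Kcnc1* rose by 1.66 from 154, 151 and 173 CPM to 387, 622 and 503 CPM. The falls included the calcium-binding auxiliary subunits *Kcnip1* and *Kcnip3* (-2.30 and -1.74) and *Kcne1l* (-2.38). Among voltage-gated sodium channels, 5 of 14 were called higher, with 0 under all 5 scalings, and 1 lower, with a median of 0.68.

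Voltage-gated calcium channels join a pore-forming subunit to auxiliary ones. Of 9 pore-forming genes 3 were called higher and 0 lower (median 0.91), and of 15 auxiliary genes 0 were higher and 1 lower (median -0.14). *Cacna1b*, the N-type channel of presynaptic terminals, had 998, 1675 and 1229 CPM in CELF2 RIP and 426, 446 and 419 CPM in input, a rise of 1.60 (SE 0.18, FDR = 4.64e-05) under all 5 scalings. The auxiliary subunit *Cacnb3* fell by 1.55. Of 24 tested glutamate receptor genes, *Grin2b*, *Grik3* and *Grm2* were called higher (1.13, 1.33 and 1.45, with 0 of them under all 5 scalings), and the other 21 were not called. The rises made up 14.3% of the NMDA, 11.1% of the AMPA and kainate and 12.5% of the metabotropic receptor genes, close to the share of all coding genes. Scaled by total counts, 0 of the 24 were higher and 3 lower, among them *Grin1*, the obligatory NMDA receptor subunit (-0.79 with TMM and -1.23 with total counts). GABA receptor genes were called higher in 3 of 16 cases (18.8%), with 0 under all 5 scalings, and lower in 2 (12.5%). *Gabbr1*, a metabotropic GABA receptor gene, had 1730, 2458 and 1719 CPM against 920, 886 and 958 CPM (1.10), while *Gabrd*, of extrasynaptic receptors, fell by 2.96 from 9.97, 9.64 and 9.09 CPM to 1.36, 1.16 and 1.16 CPM.

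Solute carriers of the plasma and organelle membranes were called higher in 57 of 242 cases, 15 of them under all 5 scalings, and lower in 16, with a median of 0.57. This list was taken by symbol and also held a few genes that are not carriers, such as *Slc4a1ap* and *Slc9a3r1*. *Slc36a1*, a lysosomal amino acid transporter, had 187, 355 and 227 CPM against 67.3, 64.9 and 67.9 CPM in input (1.94, FDR = 2.75e-05). The taurine transporter *Slc6a6* and the vesicular zinc transporter *Slc30a3* rose by 1.77 and 1.83. *Slc17a7*, the vesicular glutamate transporter of cortical excitatory neurons, had 518, 627 and 549 CPM against 212, 181 and 207 CPM (1.5, FDR = 4.8e-06), and in IgG RIP it stood at 120, 116 and 131 CPM, below every input library. *Slc50a1*, a sugar transporter, had the largest fall (-2.54).

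Synaptic vesicle release genes were called higher in 12 of 35 cases, 3 of them under all 5 scalings, and lower in 2, with a median of 0.79. All 3 CELF2 RIP libraries were above all input libraries for 26 of the 35, against 42.1% of all coding genes. *Vamp2*, a SNARE of the vesicle membrane, rose by 1.32 from 221, 206 and 277 CPM in input to 453, 742 and 555 CPM in CELF2 RIP. The groups did not overlap. The active zone gene *Bsn* rose by 1.54, and 5 of 15 synaptotagmins, the calcium sensors, were called higher. *Rims3* rose by 2.02, but its change was 0.19 on curated rows. *Napa*, which recycles SNAREs, fell by 3.05 from 63.4, 59.3 and 65.5 CPM to 11, 6.78 and 5.0 CPM, and *Syn1* fell by 1.98. On the postsynaptic side 1 of 20 scaffold genes was higher, *Homer2* (126, 203 and 151 CPM against 52.9, 51.3 and 51.1 CPM, 1.63), and 2 were lower. *Dlg4*, which encodes PSD-95, had 111, 90.5 and 100 CPM in CELF2 RIP against 307, 284 and 338 CPM in input (log2 fold change -1.62, SE 0.11, FDR = 3.04e-06).

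In signaling between cells, the counts below were not tested against each other. Of 10 Frizzled receptors, through which Wnt ligands act, 6 were called higher and 0 lower (median 1.08), and of 16 Wnt genes 3 were higher and 1 lower (median 0.58). *Fzd3* (chromosome 14, 65192441 to 65262463), needed for axon tract growth, had 841, 1411 and 910 CPM in CELF2 RIP against 333, 322 and 274 CPM in input. Together with *Fzd5* and *Wnt5a* it was called under all 5 scalings. In the Notch pathway, 3 of 4 receptors and 3 of 5 Delta and Jagged ligands rose, 2 of these 6 genes under all 5 scalings. Of 5 Hes and Hey targets 0 rose and *Hes1* fell by 1.98. Against IgG RIP, 1 of the 14 Notch genes was called higher and 1 lower, and the receptors' median for IgG RIP over input was 0.88. *Notch3* had 413, 586 and 460 CPM against 141, 145 and 136 CPM, a rise of 1.79 (SE 0.13, FDR = 4.19e-06).

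Axon guidance genes rose in 15 of 69 cases, 3 of them under all 5 scalings, and fell in 4, with a median of 0.31 that was -0.16 when scaled by total counts. Rises were in 4 of 9 netrin and Unc5 genes, 4 of 20 semaphorins, 3 of 9 plexins, 2 of 14 Eph receptors and 1 of 8 ephrins, and 2 ephrins were lower. *Ntn3*, a netrin, had 101, 142 and 132 CPM against 41.0, 42 and 43.1 CPM (1.57, FDR = 1.91e-05). Of 68 protocadherins, adhesion molecules that give neurons their identity, 7 were called higher, with 0 under all 5 scalings, and 0 lower. Their median of 0.40 was -0.07 when scaled by total counts. Genes of the alpha, beta and gamma clusters share exons or close sequence, and single values are uncertain. Collagens and laminins were higher in 4, with 0 under all 5 scalings, and lower in 1 of 54, and for this list IgG RIP over input had the higher median (0.71 against 0.55).

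Kinesin genes, motors of axonal transport, were called higher in 10 of 35 cases and lower in 0, and of the 12 rises among kinesin and dynein genes together 2 held under all 5 scalings. The kinesin median was 0.19 for CELF2 RIP over input, 0.51 for IgG RIP over input and -0.12 for CELF2 RIP over IgG RIP. Among the rises that held, *Kif1b* had 2647, 4566 and 3267 CPM against 1253, 1144 and 1238 CPM (1.53), and the dynein light chain *Dynll2* rose by 1.74. The light chain *Dynlrb1* fell by 2.87. Of 55 Rab GTPases of vesicle transport, 8 were higher (14.5%, 1 gene under all 5 scalings) and 9 lower (16.4%), close to the shares of all coding genes. *Rab3c*, of synaptic vesicles, rose by 1.75 and *Rab9* fell by 3.05. In cholesterol synthesis, 4 of 24 genes rose (16.7%), with 0 under all 5 scalings, and 5 fell (20.8%), not far from the shares of all coding genes. The regulator *Srebf2* rose from 694, 663 and 726 CPM to 1572, 2120 and 1729 CPM (1.38), while the enzymes *Nsdhl*, *Fdps* and *Mvd* had log2 fold changes of -2.81, -2.62 and -2.0. Genes of mitosis and DNA replication were lower in 4 of 33 cases (12.1%, close to the share of all coding genes) and higher in 0.

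The labels list neurons, radial glia, astrocytes, oligodendrocyte precursors, microglia and endothelial cells in the lysate, and markers of these types and of blood were found in input. Of 12 microglia and macrophage markers, 9 were called lower, with a median of -2.02 and a summed level between 175 and 212 CPM in CELF2 RIP and between 369 and 459 CPM in input. *C1qb*, of complement, fell by 4.13 from 41.8, 48.6 and 36.8 CPM to 2.64, 2.46 and 2.14 CPM, while *Cx3cr1*, the fractalkine receptor of microglia, had 89.4, 108 and 77.7 CPM against 61.9, 67.2 and 50.8 CPM and was not called (0.61). The call for *Csf1r*, with 0, 2.93 and 3.39 CPM against 0 in input, was lost with the replicate block. Of 6 erythroid genes 4 were lower, and their sum was between 93.8 and 96.5 CPM against between 878 and 1136 CPM in input. The beta-globin gene *Hbb-bs* had 21.1, 21.9 and 19.99 CPM against 346, 459 and 409 CPM (-4.27, FDR = 3.06e-06). Input was an aliquot of the same lysate as the RIPs. In such a bulk lysate, the level of a marker in input cannot tell apart fewer cells of a type from less RNA per cell.

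Among 12 radial glia markers 4 were lower and 0 higher, with a median of -0.68. *Vim*, an intermediate filament gene, went from 173, 176 and 179 CPM in input to 30.8, 25.5 and 25.4 CPM (-2.69), and *Fabp7* and *Sox2* fell by 1.86 and 1.18, whereas *Ptprz1*, the most counted, had 1830, 1511 and 1712 CPM against 1527, 1343 and 1316 CPM and was not called. Excitatory neuron markers rose in 4 of 12 cases, 1 of them under all 5 scalings, and fell in 1, including *Dcx*, of migrating neurons (1.47). Of 12 interneuron markers, 1 was called higher, with 0 under all 5 scalings, and 2 lower, with a median of 0.33. The rise was in *Lhx6*, a transcription factor, by 1.42 (0.94 and not called when scaled by total counts). *Sst*, the short mRNA of a neuropeptide, fell by 3.56 from 99.5, 99.9 and 92.8 CPM to 9.68, 7.93 and 7.14 CPM. In the other lists, 1 of 8 intermediate progenitor, 2 of 9 astrocyte, 1 of 11 oligodendrocyte and 0 of 14 endothelial or pericyte markers were higher, and 2, 1, 3 and 4 were lower. Under all 5 scalings, 1 intermediate progenitor and 1 astrocyte marker were higher. *Insm1* of intermediate progenitors had 140, 217 and 177 CPM against 56.2, 54.9 and 54.5 CPM (1.69, FDR = 1.09e-05).

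Noncoding genes were fitted together with coding genes, with CPM scaled over both. In that fit, 5.85% of all 18601 genes were called higher and 18.4% lower, with a median of 0.0033. Its coding genes were called higher in 4.64% and lower in 22.2%, with a median of -0.196. Of 3428 noncoding genes tested, 384 were called higher (11.2%) and 61 lower (1.78%), with a median of 0.83. All 3 CELF2 RIP libraries were above all input libraries for 1845 noncoding genes (53.8%) and below for 264 (7.7%). Over all 18601 genes of the fit, these counts were 6123 and 6823. For IgG RIP over input, 1388 were called higher (40.5%) and 33 lower (0.963%), with a median of 1.45, and CELF2 RIP was called above IgG RIP for 31 noncoding genes (0.904%) and below it for 495 (14.4%). Most were lncRNAs with predicted names, of which 345 of 2958 rose (median 0.87), and 19 of 252 lncRNAs with other names rose (median 0.50). With the replicate block 342 noncoding genes were called higher (9.98%). The number of noncoding rises depended on single libraries, as it was 118 without CELF2 RIP replicate 2, 186 without CELF2 RIP replicate 3, 131 without input replicate 1 and 135 without input replicate 3.

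*Norad* (chromosome 2, 156388063 to 156392979), a cytoplasmic lncRNA that binds Pumilio proteins, had 1373, 2110 and 1514 CPM in CELF2 RIP, 490, 517 and 484 CPM in input and 451, 470 and 539 CPM in IgG RIP. CELF2 RIP was above all 6 other libraries, with a log2 fold change over input of 1.75 (SE 0.16, FDR = 1.56e-05). The imprinted nuclear RNA *Kcnq1ot1* also rose, by 1.27, from 681, 898 and 679 CPM to 1592, 2329 and 1535 CPM, but stood highest in IgG RIP, at 3967, 4473 and 2391 CPM. In the list drawn up for nuclear-retained RNAs, 3 of 12 were higher and 1 lower. That list also held the cytoplasmic *Norad*, whose 1.75 was its highest value. *Malat1*, the most counted, had 3446, 3758 and 3391 CPM against 3141, 3561 and 3155 CPM and was not called (0.10). The largest rises, in *LOC108169181* (3.69) and the predicted genes *Gm20324*, *Gm10538*, *Gm39272* and *Gm34588* (2.10, 2.05, 1.99 and 1.98), were in genes with no more than 36.1 CPM in any CELF2 RIP library, and the call for *Gm34588* was lost with the replicate block.

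Of the 5 noncoding genes named for the largest falls, 4 gave short structured RNAs made by RNA polymerase III. *Rn7s1* (chromosome 12, 69159295 to 69159593), the 7SL RNA of the signal recognition particle, had 378, 134 and 266 CPM in CELF2 RIP and 33908, 63856 and 34347 CPM in input (log2 fold change -7.41, SE 0.48, FDR = 1.81e-06). Its copy *Rn7s2* had identical counts, so reads were divided evenly between the 2 genes. *Rpph1*, the RNA of RNase P, had 61.5, 23.6 and 29.2 CPM against 3613, 6497 and 4830 CPM (-7.03). *Rn7sk*, which holds the elongation factor P-TEFb, and *Rmrp*, of RNase MRP, fell by 5.69 and 4.60. IgG RIP stood between CELF2 RIP and input for each of these.

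**Figure D4:**
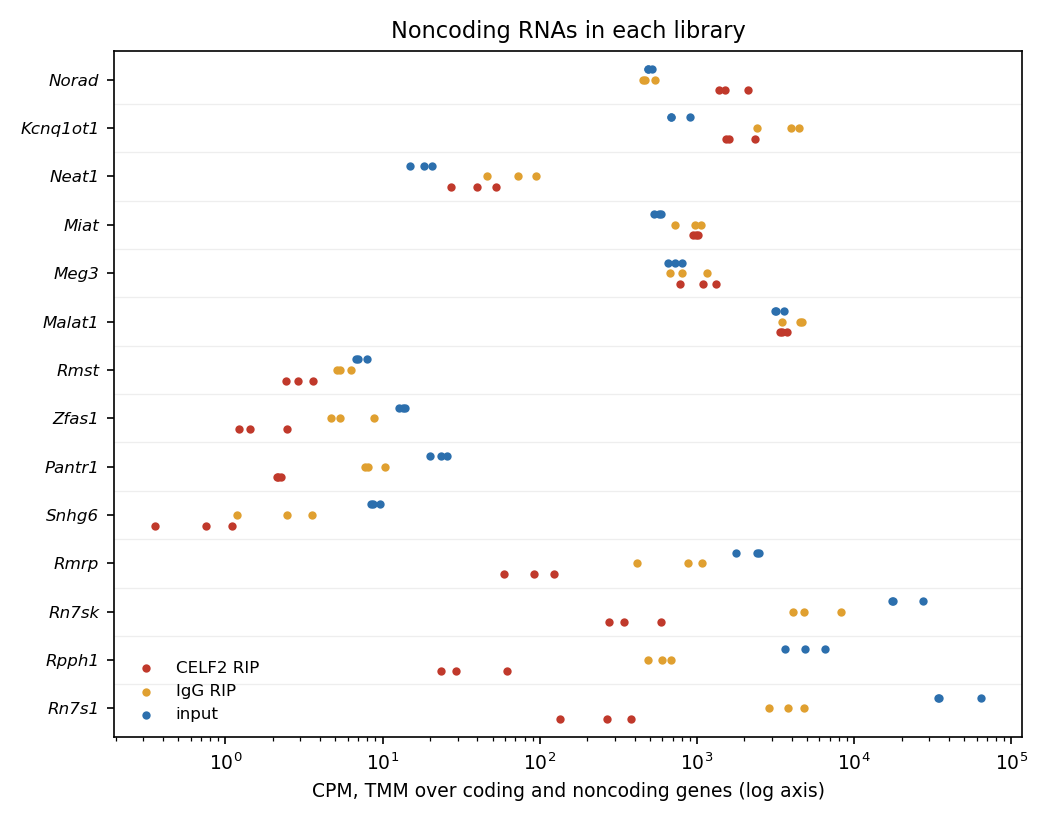
CPM in each library on a log axis for 14 noncoding RNAs, scaled over coding and noncoding genes, with 3 points each for CELF2 RIP (red), IgG RIP (orange) and input (blue). *Norad* is highest in CELF2 RIP, *Kcnq1ot1* is highest in IgG RIP, and the structured RNAs at the bottom are lowest in CELF2 RIP.

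Across all coding genes, the change over input went with transcript level and with the genomic span of the gene. In 10 equal groups by mean CPM over the 9 libraries, the share called higher went from 1.57% in the lowest group to 35.8% in the highest (above 144.91 CPM). The share called lower peaked at 25.8% in the fourth group and was 6.81% in the highest. The median log2 fold change was -0.05 in the lowest group, -0.27 in the fourth and 0.76 in the highest. Mean CPM took in the CELF2 RIP libraries themselves, which moves genes that rose toward the higher groups. A call also depends on the number of counts, which limits calls in the lowest group in both directions (1.57% higher and 7.07% lower). By genomic span, the share called lower went from 39.0% in the shortest genes (334 to 4423 bases) to 3.47% in the longest (138300 to 2390387 bases), and the share called higher from 8.45% to 20.6%. The median went from -0.68 to 0.52. For IgG RIP over input, the median went from -0.43 to 0.33 over the same groups. Lengths of the transcripts themselves were not analysed here, and the part of span or level in the family values above was not tested.

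**Figure D5:**
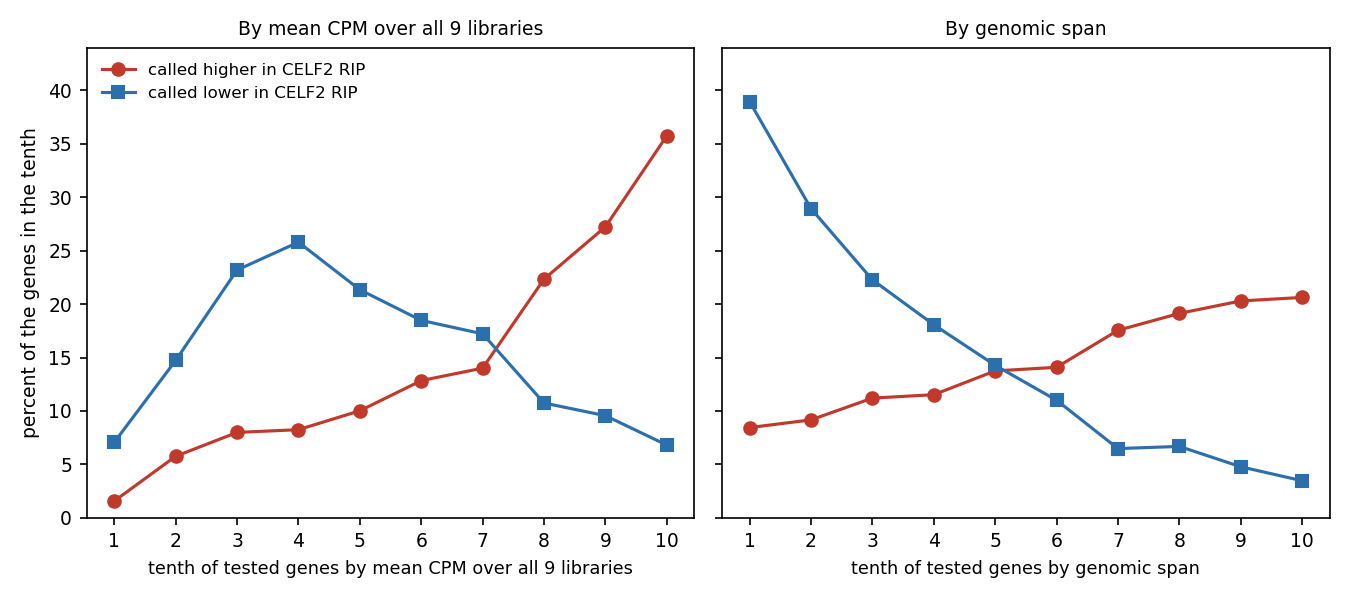
Percent of genes called higher (red circles) and lower (blue squares) in CELF2 RIP in 10 equal groups of the 15267 coding genes, ordered by mean CPM over all 9 libraries (left) and by genomic span (right). The red line rises to 35.8% at the highest level, and the blue line falls from 39.0% to 3.47% from the shortest to the longest genes.

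Same-numbered libraries were compared as 3 pairs. The median log2 ratio of CELF2 RIP to input, with 0.5 CPM added to both, was 0.16, 0.14 and 0.16 in pairs 1, 2 and 3. Ratios of at least 2-fold were less frequent in pair 1, with 1456 genes higher and 2290 lower, than in pair 2 (3213 and 2935) and pair 3 (2498 and 2868). In all 3 pairs, 1150 genes were at least 2-fold higher and 1849 at least 2-fold lower, and 12563 of 15267 had the same sign.

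A few genes were lower than input in CELF2 RIP while standing above it in IgG RIP. *Pcyt2*, of phosphatidylethanolamine synthesis, had 11.6, 8.01 and 10.2 CPM in CELF2 RIP, 21.9, 23.0 and 21.9 CPM in input and 71.0, 56.5 and 35.8 CPM in IgG RIP. *Ppp1r12a*, the myosin phosphatase targeting subunit, *Rhpn1*, which encodes a rhophilin, and *Haus5*, of the augmin complex, had the same order, with log2 fold changes of CELF2 RIP over input of -1.34, -1.13 and -1.06. *Aifm3* fell by 1.09, a call that was lost with the replicate block.

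Some calls of named genes rested on single libraries or on predicted transcripts. Without CELF2 RIP replicate 2, the changes of *Atp5b*, *Bcl11b*, *Gabbr1*, *Grin2b*, *Zbtb18* and *Gm31606* were -0.999, 0.99, 0.91, 0.94, 0.99 and 0.97 and were no longer called. *Gabbr1* (0.95), *Grin2b* (0.996) and *Zbtb18* (0.94) also lost the call without input replicate 2, and *Gm31606* without input replicate 1 (1.11) or 3 (1.04). *H4c18* lost it without CELF2 RIP replicate 1 (0.86) or input replicate 2 (0.89), and *Rhpn1* without CELF2 RIP replicate 3 (-0.96). *Lhx6*, *Ppp1r12a* and *LOC108169181* lost it without any of at least 4 libraries, with changes between 1.22 and 1.38, between -1.43 and -1.14 and between 3.62 and 4.40. On curated rows alone the calls of *Yif1b* (-5.49), *Hk2* (1.28), *Slc50a1* (-2.88), *Rab9* (-2.53), *Lhx6* (1.14), *Pcyt2* (-2.40), *Ppp1r12a* (-1.17) and *Rhpn1* (-2.84) were lost with the direction kept.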

How the data were processed

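RNA from the cytoplasmic fraction of P0 cortices was immunoprecipitated with anti-CELF2 antibody or rabbit IgG or kept as input, with 3 biological replicates each. Libraries were rRNA depleted and strand specific. The authors deposited estimated counts per RefSeq transcript from kallisto v0.51.1, after fastp v0.23.4 and Ribodetector v0.3.1 per the submitters' processing notes. The strand setting was not given in the sources used here. Of 107384 transcript rows, 86722 matched a gene of the GRCm38.p6 gene table and these were added up by gene and rounded. Rows without a gene (9.24% to 43.46% of the counts of a library) and rRNA genes were left out.

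Genes that reached 0.5 CPM in 3 or more of the 9 libraries were fitted in edgeR v4.0.16 (R v4.3.3) with TMM factors and the quasi-likelihood test on all 9 libraries, with Benjamini-Hochberg adjustment over all genes tested (FDR). The common biological coefficient of variation was 0.221. Noncoding genes were fitted together with coding genes. Pair ratios used a pseudocount of 0.5 CPM. Bounds used a floor of 3 counts per library and cover counting error only. Alternatives were other scalings, DESeq2 v1.42.0, glmTreat, other filters, 6 libraries, a replicate block, curated transcript rows and leaving out each library of both conditions.

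Deviations of same-numbered CELF2 RIP and input libraries from their group means correlated at 0.185, 0.122 and 0.213 over 11534 genes, against between -0.173 and -0.024 for other numbers. The numbers were taken to pair the libraries, which rests on the data, since the labels give only the number. Deviations within a condition sum to 0, so positive values for same numbers push those for other numbers below 0. The values for other numbers are therefore not separate evidence of pairing.

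The comparison and the gene lists were chosen with earlier results of these data known. The histone pattern and the name of the translation factor list were corrected, and subfamilies were made by gene symbol, after values were seen. Named genes were the 12 called with the largest rises and the 12 with the largest falls that had a mean of at least 5 CPM in the higher condition and no overlap, predicted genes aside. To these were added the highest, the lowest and the most counted member of each list, *Celf2*, the 5 called higher and 5 called lower with the largest change of IgG RIP over input, and the 5 largest noncoding changes in each direction. The other genes named were chosen from the lists after their values were seen. Some genes are not reported here.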

Additional observations from a re-analysis of the deposited data

How the results depend on the processing

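The 2226 coding rises were 531 when scaled by total counts, 1177 with upper-quartile factors, 705 with TMM over coding and noncoding genes, 339 with glmTreat against 2-fold, 1438 with 6 libraries, 1386 with 6 libraries and a replicate block, 1411 on curated rows and between 1535 and 2524 when 1 library was left out. The 2366 coding falls were 3581 when scaled by total counts, 1117 with glmTreat and between 2043 and 2406 without 1 library. The 384 noncoding rises were 724 with upper-quartile factors, 787 with the DESeq2 Wald test, 5 with glmTreat, 823 with 6 libraries, 807 with 6 libraries and a replicate block, and between 118 and 505 without 1 library. The 61 noncoding falls were 30 with glmTreat, 28 with a minimum of 5 CPM, 103 with 6 libraries, 104 with 6 libraries and a replicate block, and between 41 and 53 without 1 library. The cause was not tested, other than that scalings shift all genes together.

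With the replicate number as a block in the fit of 9 libraries there were 2138 rises and 2300 falls, of which 2114 and 2253 were shared with the fit without it. Of 170 named genes, the block changed the call of 5 (*Aifm3*, *Gm34588*, *H1f4*, *Rbm12b2* and *Urb2*) and no other, and outside that rule those of *Csf1r* and *Celf1*.

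Direction reversed in 24 values of 14 genes named by the rule, of which *Gabrq* and *Nrxn3* had been called. Scaled by total counts, the changes were -0.17 for *Col4a1*, -0.16 for *Cspg4*, -0.053 for *Gria1*, -0.036 for *Grm5*, -0.11 for *Pcdhgc3*, -0.18 for *Ptprz1* and -0.23 for *Tubb3*. With TMM over coding and noncoding genes they were -0.10, -0.085, -0.038, -0.11 and -0.16 for *Col4a1*, *Cspg4*, *Pcdhgc3*, *Ptprz1* and *Tubb3*, and with upper-quartile factors -0.0014 for *Tubb3*. On curated rows they were -0.18 for *Abcc9*, -0.19 for *Gabrq* and -0.51 for *Nrxn3*. When 1 library was left out, *Chd3* lay between -0.169 and 0.149, *Shank1* between -0.208 and 0.0814, *Slc32a1* between -0.112 and 0.0266 and *Syp* between -0.210 and 0.0565. CELF2 RIP was sequenced less deeply than input, which limits genes under a few CPM.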
